A study of Homo sapiens with 90 samples.

Results

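The genes described here are 31 transporters that move bile acids, drugs, nutrients and metals across the membranes of liver cells. They were chosen by symbol from the 28307 genes of the count table and comprise 9 ABC efflux pumps, 10 SLC uptake carriers, 3 SLC efflux carriers, 4 SLC nutrient carriers, 3 SLC metal carriers and 2 others, SLC22A18 and ATP8B1. All 31 symbols were found, and 27 had enough counts to be tested. SLCO4C1, SLC51A, SLC51B and SLC13A5 did not pass the filter on low counts and are given by their levels only.

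The cells were HepaRG, a human hepatic line whose progenitors can be differentiated into hepatocyte-like and biliary-like cells. Parental cells, labelled wt, were set beside cells stably transduced with a lentivirus to express CYP2D6, a cytochrome P450 that oxidises many drugs. The promoter of the transgene, and whether the transduced line is a single clone, are not given in the sources used here. Progenitors were sampled on days 0, 2, 4, 7 and 14 without DMSO. Fresh and thawed differentiated cells were sampled on day 30 (labelled noDMSO), on day 32 with and without DMSO, and on days 37 and 44 with DMSO. These 15 conditions in 2 genotypes gave 30 groups of 3 libraries, lettered a, b and c. Per the labels' protocols, all cells grew in a serum medium with insulin and hydrocortisone, and differentiation was induced by 2 weeks with 1.7% DMSO. What noDMSO means for day 30 cells after that induction is not given in the sources used here, so whether day 32 without DMSO followed a withdrawal of DMSO cannot be told.

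A hepatocyte takes up bile acids, organic anions and nutrients from blood mainly through SLC carriers of its basolateral membrane. It exports bile salts, phospholipid and drug conjugates into bile mainly through ABC pumps, which spend ATP. Many of these genes are controlled by nuclear receptors such as FXR, PXR and CAR, which sense bile acids and foreign compounds.

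Of 90 libraries, 3 parental ones were nearly empty and were left out, and the other 87 held 723391 to 3882866 counts (median 1935150). Nothing in the labels says that lettered replicates came from separate cultures, so p-values measure the spread between these samples, which may be technical. In CPM, counts scaled to library size, 7 hepatocyte markers summed to 2735 ± 188 (SD, n = 5) in progenitors on day 2, 36369 ± 4957 (n = 5) on day 14 and 76094 ± 16222 (n = 6) in fresh cells on day 44. In the same conditions 4 cell cycle markers summed to 628 ± 86.7, 47.7 ± 10.5 and 45.0 ± 11.5 CPM. The 8 biliary and progenitor markers summed to 622 ± 47.4, 486 ± 41.8 and 391 ± 29.7 CPM, with EPCAM at 0 counts in all 87 libraries. The 6 mesenchymal markers summed to 140.1 ± 15.4, 124 ± 18.9 and 60.0 ± 10.0 CPM. The cell cycle markers were higher in differentiated cells before day 37. In fresh cells they summed to 128 CPM on day 30, and to 155 without and 213 with DMSO on day 32. In thawed cells these sums were 135, 218 and 206 CPM. In bulk samples, fewer cells of a type and less RNA per cell cannot be told apart.

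Most transporter genes were lowest in progenitors and highest in differentiated cells. Of the 27 tested genes, 19 had their lowest condition mean in progenitors, 12 of them on day 2. The highest mean fell in a fresh condition for 20 genes, in a thawed one for 4 and in progenitors for 3. Those 3 were SLCO1B3 and SLC29A1 on day 2 and SLC22A9 on day 14, all of them uptake carriers. None of the 9 ABC pumps was highest in progenitors, and 6 of the 9 were lowest there, as were 7 of the 9 tested uptake carriers. Progenitors made up 5 of the 15 conditions. The same shares over all tested genes were not computed, so these counts are not shown to be particular to transporters.

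**Figure D1:**
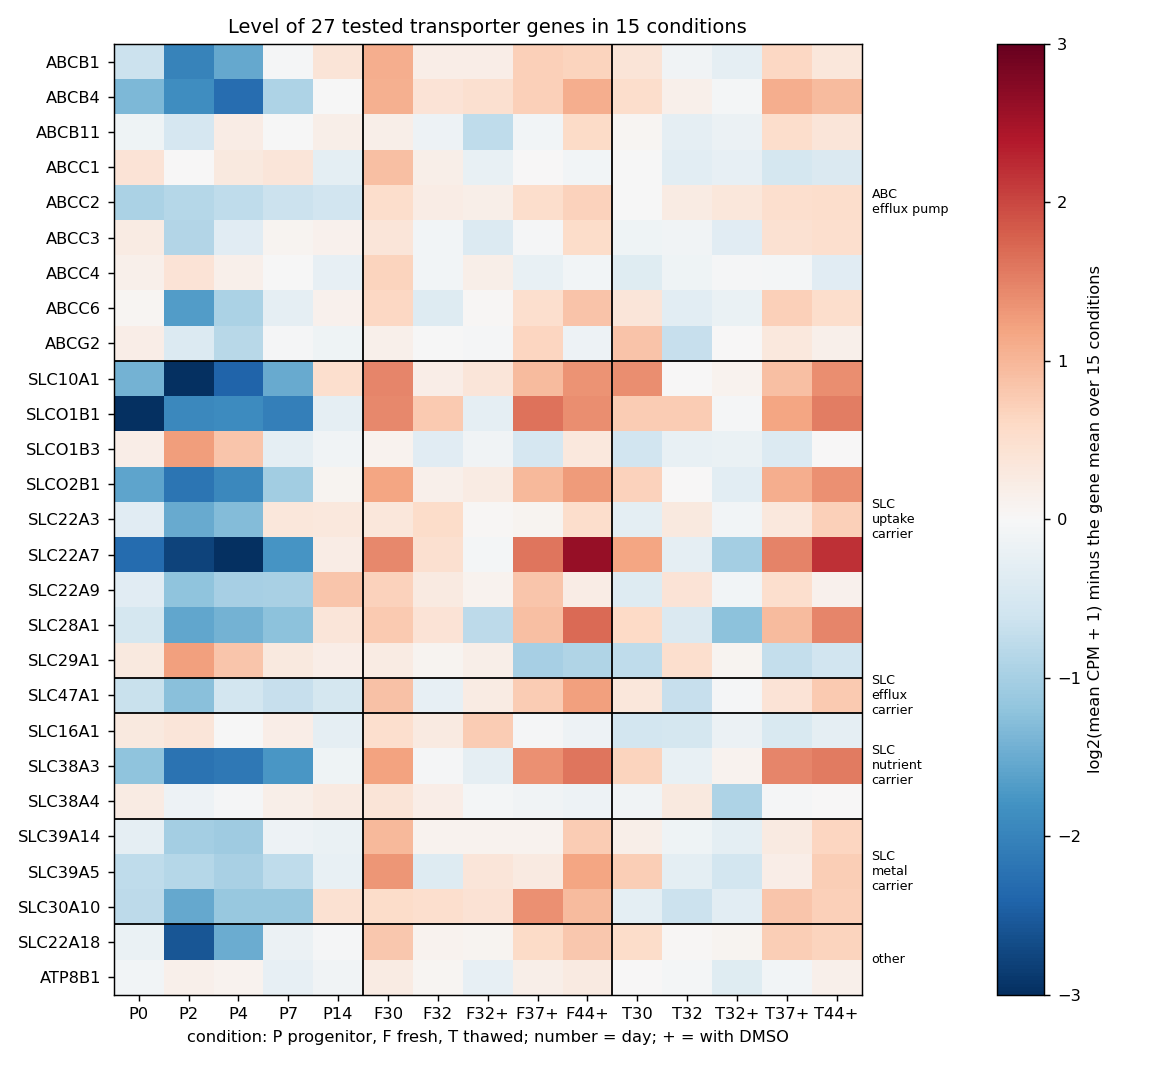
Levels of the 27 tested transporter genes (vertical axis, grouped by role) in 15 conditions (horizontal axis), as log2(mean CPM + 1) minus the mean of that gene over the conditions. For 19 genes the lowest cell lies in a progenitor column, while SLCO1B3 and SLC29A1 are highest on progenitor day 2.

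The summed level of the uptake carriers covered a wider range, as a ratio, than that of the efflux pumps. The 9 ABC pumps together gave 124 ± 15 CPM (SD, n = 6) in progenitors on day 0, 69.1 ± 6.72 (n = 5) on day 2 and 150.5 ± 24.3 (n = 5) on day 14. In fresh cells they gave 245 ± 53.9 CPM (n = 5) on day 30, 157 ± 9.97 (n = 6) on day 32 without DMSO and 237 ± 41.9 (n = 6) on day 44. The ABC sum was lowest on progenitor day 2, and its day 30 and day 44 values lay within 1 SD of each other.

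The 10 uptake carriers gave condition means of 25.3 ± 3.94 to 29.1 ± 7.83 CPM (SD, n = 6 each, days 4 and 7) from day 0 to day 7 of the progenitors, and 74.4 ± 16.3 (n = 5) on day 14. In fresh cells their sum was 151 ± 33.7 CPM (n = 5) on day 30, 83.8 ± 10.2 (n = 6) on day 32 without DMSO and 201 ± 24.5 (n = 6) on day 44. In thawed cells it was 114 ± 12.8, 70.5 ± 9.95 and 182 ± 50.3 CPM (n = 6 each) at the same points. Single genes carried much of these sums. On progenitor day 2 SLC29A1 had a mean of 17.0 CPM, where the uptake sum was 28.7. On fresh day 44 SLC22A7 had a mean of 96.9 CPM. The sums are descriptions and were not tested.

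**Figure D2:**
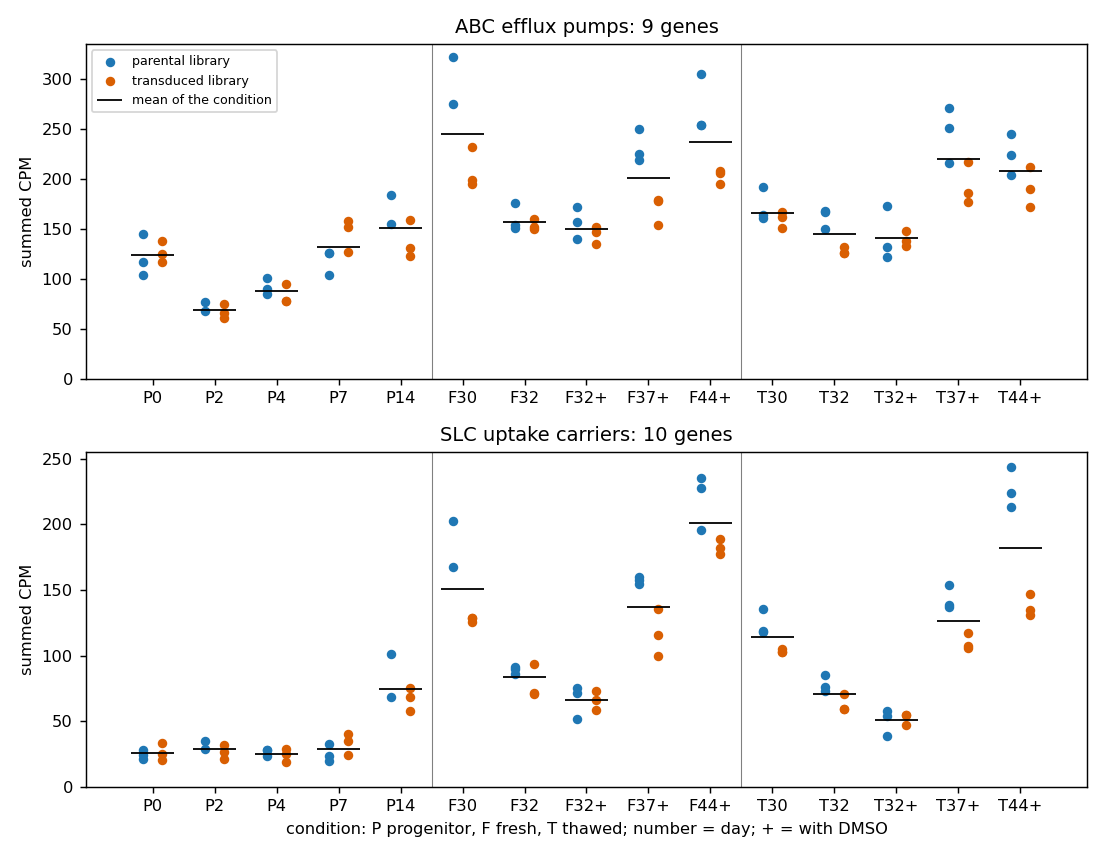
Summed CPM of the 9 ABC efflux pumps (top) and the 10 SLC uptake carriers (bottom) in each library by condition; P, F and T are progenitor, fresh and thawed cells, the number is the day, + is with DMSO, and lines are condition means. The ABC sum dips on progenitor day 2, the uptake sum stays low until day 7, and both drop from day 30 to day 32.

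The promoters of 3 members are shown because these genes took different courses. SLC10A1 (NTCP, the sodium-dependent bile acid importer) and SLCO1B1 (OATP1B1, an importer of bilirubin conjugates and statins) were high in differentiated cells, and SLC29A1 (ENT1, an equilibrative nucleoside carrier) was highest in progenitors on day 2. Each run is the 250 bases before a RefSeq start site (GRCh38.p14), 5′ to 3′ on the strand of the gene, with the matches to the searched motifs in capitals.
SLC10A1: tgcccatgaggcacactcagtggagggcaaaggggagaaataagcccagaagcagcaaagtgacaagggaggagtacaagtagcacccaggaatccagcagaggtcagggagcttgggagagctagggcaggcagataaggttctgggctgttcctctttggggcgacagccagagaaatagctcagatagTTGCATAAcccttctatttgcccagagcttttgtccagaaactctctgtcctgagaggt
SLCO1B1: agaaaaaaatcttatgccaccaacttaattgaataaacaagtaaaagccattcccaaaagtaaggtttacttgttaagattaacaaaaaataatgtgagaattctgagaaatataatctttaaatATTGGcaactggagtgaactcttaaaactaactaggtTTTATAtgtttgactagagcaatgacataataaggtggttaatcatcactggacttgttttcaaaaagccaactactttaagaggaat
SLC29A1: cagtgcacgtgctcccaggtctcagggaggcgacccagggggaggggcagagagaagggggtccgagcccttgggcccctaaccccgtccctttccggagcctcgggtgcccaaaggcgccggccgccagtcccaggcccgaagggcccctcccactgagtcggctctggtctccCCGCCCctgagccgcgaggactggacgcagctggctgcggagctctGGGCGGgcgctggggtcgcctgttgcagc
They lie at chr14:69797242-69797491 on the minus strand, chr12:21130944-21131193 on the plus strand and chr6:44219365-44219614 on the plus strand, the last being the first of 2 windows listed for SLC29A1. G and C made up 52.8%, 29.2% and 73.2% of the bases. The capitals in SLC10A1 are a C/EBP motif, those in SLCO1B1 a CCAAT box and a TATA box, both on the opposite strand, and those in SLC29A1 a GC box on each strand. RefSeq windows of 300 bases, from 250 before to 50 after the start site, were matched for 20 of the 31 genes, with 30 windows in all. Searched on both strands, TTGCNNAA (C/EBP) was in 3 of these 30 windows and in 10.5% of all 35116 RefSeq windows, and TATAAA in 5 and in 11.5%. CCAAT was in 5 of the 30 and in 34.6% of all windows, GGGCGG (GC box) in 7 and in 45%, and CAAAGTCCA (an HNF4 motif) in 1 and in 0.384%. A match is a description of the letters and not a binding site.

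In progenitors, more transporter genes fell than rose between day 0 and day 2. Of the 27 tested genes 11 fell and 3 rose, against 16.6% lower and 13.8% higher among all 12532 tested genes (edgeR quasi-likelihood test, Benjamini-Hochberg adjusted p under 0.05, as in all comparisons here). The median log2 change was −0.78 for the transporters and −0.08 for all genes. The falls were in 3 of 9 ABC pumps (ABCB1, ABCC3 and ABCC6), 4 of 9 uptake carriers (SLC10A1, SLC22A3, SLC22A9 and SLC28A1), SLC47A1, SLC38A3, SLC39A14 and SLC22A18. Those 4 uptake carriers were low, with day 2 means of 0.501, 0.794, 0.189 and 0.174 CPM. The sum of the 10 uptake carriers did not fall, at 25.4 ± 4.66 CPM on day 0 (SD, n = 6) and 28.7 ± 5.45 on day 2 (n = 5). Of 7 hepatocyte markers 6 fell and of 4 cell cycle markers 4 rose, and their part in the result was not tested.

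SLC22A18, a putative organic cation carrier from an imprinted region, gave 59.8, 68.1 and 109 CPM on day 0 (lowest, median and highest of 6). On day 2 it gave 9.19 and 13.8 CPM in the parental and 15.2, 15.8 and 14 in the transduced libraries. Every day 2 library lay below every day 0 library, and the fall was 5.55-fold (log2 change −2.47 ± 0.18 SE, adjusted p = 4.34e-22). ABCC6, an ABC pump whose loss leads to ectopic mineralisation, gave 8.59, 16.8 and 23.7 CPM on day 0 and 3.53 and 4.78 CPM in the parental and 1.89, 5.54 and 5.51 in the transduced libraries on day 2. Its groups did not overlap either (log2 change −1.85 ± 0.28 SE, adjusted p = 3.52e-08), but near-identical pseudogenes of ABCC6 are counted apart, so its reads may be split. ABCB1 (P-glycoprotein, a broad drug exporter) gave 15, 19.5 and 31.1 CPM on day 0 and 14.1 and 6.91 CPM in the parental and 4.74, 5.54 and 7.51 in the transduced libraries on day 2. It was lower in every day 2 library, by 2.66-fold (adjusted p = 1.39e-07).

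The 3 genes that rose by day 2 were the uptake carriers SLC29A1, SLCO1B3 (OATP1B3, an organic anion importer) and SLCO1B1. SLC29A1 gave 3.65, 8.80 and 12.7 CPM on day 0 and 14.8 and 20.7 CPM in the parental and 13.7, 16.6 and 19.0 in the transduced libraries on day 2. Its groups did not overlap (log2 change 0.96 ± 0.31 SE, adjusted p = 0.0113). SLCO1B3, whose reads may be shared with an overlapping readthrough gene, gave 0.913, 2.42 and 5.75 CPM on day 0 and 6.36 and 9.04 CPM in the parental and 4.74, 4.35 and 7.01 in the transduced libraries on day 2, with overlap (log2 change 1.38 ± 0.53 SE, adjusted p = 0.0370). SLCO1B1 was at 0.152 ± 0.373 CPM on day 0 (SD, n = 6), from 1 count in all, and at 1.5 ± 1.51 (n = 5) on day 2, from 14 counts. The call of SLCO1B3 was lost without letter a, b or c (adjusted p = 0.174, 0.161 and 0.0634) and by DESeq2 (0.0663), and that of SLC29A1 without b or c (0.0816 and 0.144). The 14 called genes became 8 without letter b, 9 without c and 8 when only the compared groups were fitted.

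By day 14 most transporter genes had risen. From day 2 to day 14, 16 of 27 rose and 2 fell, against 19.5% higher and 16.7% lower among all genes, and the median log2 change was 2.02 against 0.09. Uptake carriers rose in 7 of 9 and fell in 2, and ABC pumps rose in 4 of 9 (ABCB1, ABCB4, ABCC3 and ABCC6) and fell in 0. Of 42 other hepatic transporters, 30 were tested, of which 17 rose and 1 fell. Of 15 regulators of such genes 10 rose, among them NR1H4 (FXR, the bile acid receptor), which went from 1.30 to 27.5 CPM (log2 change 4.37 ± 0.31 SE, adjusted p = 6.13e-25). Of 7 hepatocyte markers 7 rose and of 4 cell cycle markers 4 fell, and their part in the result was not tested.

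SLC10A1 (chr14:69775416-69797241) gave 0 and 0.532 CPM in the parental and 0.474, 0 and 1.5 in the transduced libraries on day 2, from 5 counts in all. On day 14 it gave 23.8 and 17.1 CPM in the parental and 18.5, 18.1 and 20 in the transduced libraries. Every day 14 library exceeded every day 2 library, and the fitted log2 change was 5.31 ± 0.39 SE (adjusted p = 1.85e-23). SLC22A7 (OAT2, an importer of organic anions, chr6:43295714-43305538) gave 2.12 and 1.59 CPM in the parental and 0, 0.396 and 2.50 in the transduced libraries on day 2 and 37 and 9.52 CPM in the parental and 14.8, 12.4 and 14.5 in the transduced libraries on day 14. Its groups did not overlap, and parental library a was the highest on day 14 (log2 change 3.76 ± 0.42 SE, adjusted p = 8.10e-12). SLCO2B1 (OATP2B1, also an organic anion importer) went from 0.838 ± 0.969 to 7.79 ± 5.01 CPM (SD, n = 5 each; log2 change 3.69 ± 0.53 SE, adjusted p = 3.65e-09), and its lowest day 14 library lay within the day 2 values.

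SLC29A1 and SLCO1B3 fell over the same interval. SLC29A1 gave 5.84 and 11.9 CPM in the parental and 7.41, 8.43 and 5.53 in the transduced libraries on day 14, all below the day 2 libraries (log2 change −1.11 ± 0.32 SE, adjusted p = 0.00312). SLCO1B3 gave 0.973 and 3.17 CPM in the parental and 1.24, 2.41 and 1.38 in the transduced libraries, also without overlap (log2 change −1.79 ± 0.55 SE, adjusted p = 0.00611). Both calls were lost without letter a (adjusted p = 0.0531 and 0.131) and without parental day 14 library a alone (0.0514 and 0.0678).

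Fresh differentiated cells on day 30 carried more transporter RNA than progenitors on day 14. Time in culture, the DMSO that induced differentiation and any handling at day 30 cannot be told apart at this step. Of the 27 genes 13 rose, against 10.7% of all genes, and 0 fell, against 11.9% (edgeR; 0 also at an unadjusted p under 0.05 and 0 by DESeq2). The median log2 change was 0.86. The ABC pumps that rose were ABCB1, ABCB4, ABCC1 and ABCC2, and the uptake carriers were SLC10A1, SLCO1B1, SLCO2B1 and SLC22A7. SLC47A1, SLC38A3, SLC39A14, SLC39A5 and SLC22A18 rose as well. SLC39A5 was low, and its highest condition mean, 3.90 CPM, was that of these day 30 cells. Whether it passed the filter on low counts only through these libraries was not checked. Of 30 other hepatic transporters 13 rose and 0 fell. The count of 13 was 7 without letter b. Among the markers 4 of 7 hepatocyte and 4 of 4 cell cycle markers rose, and of 5 tested biliary and progenitor markers 2 fell and 1 rose. Their part in the result was not tested.

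SLCO1B1 (chr12:21131194-21239796) gave 7.54 and 5.95 CPM in the parental and 8.65, 8.03 and 4.15 in the transduced libraries in progenitors on day 14. In fresh day 30 cells it gave 50.3 and 33.0 CPM in the parental and 14.9, 12.3 and 14.8 in the transduced libraries. The groups did not overlap, the parental day 30 libraries were the highest, and the rise was 3.39-fold (log2 change 1.76 ± 0.29 SE, adjusted p = 5.42e-07). SLC47A1 (MATE1, which exports organic cations into bile) gave 16.5 and 6.74 CPM in the parental and 7.41, 3.61 and 12.4 in the transduced libraries on day 14 and 33.9 and 34.3 CPM in the parental and 20.6, 22.3 and 21.2 in the transduced libraries on day 30. All day 30 libraries of SLC47A1 exceeded all day 14 libraries, by 2.86-fold (adjusted p = 6.97e-07).

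SLC38A3 (SNAT3, a glutamine carrier) gave 11.4 and 2.78 CPM in the parental and 8.23, 4.41 and 3.45 in the transduced libraries on day 14 and 22.2 and 19.6 CPM in the parental and 19.4, 14.5 and 9.61 in the transduced libraries on day 30, with overlap. The rise was 2.66-fold (adjusted p = 1.19e-04), and without letter b the adjusted p was 0.0576. ABCC2 (MRP2, which exports conjugated bilirubin and drugs into bile) went from 24.6 ± 3.82 to 54.1 ± 15.3 CPM (SD, n = 5 each) without overlap (log2 change 1.13 ± 0.19 SE, adjusted p = 6.57e-07).

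**Figure D3:**
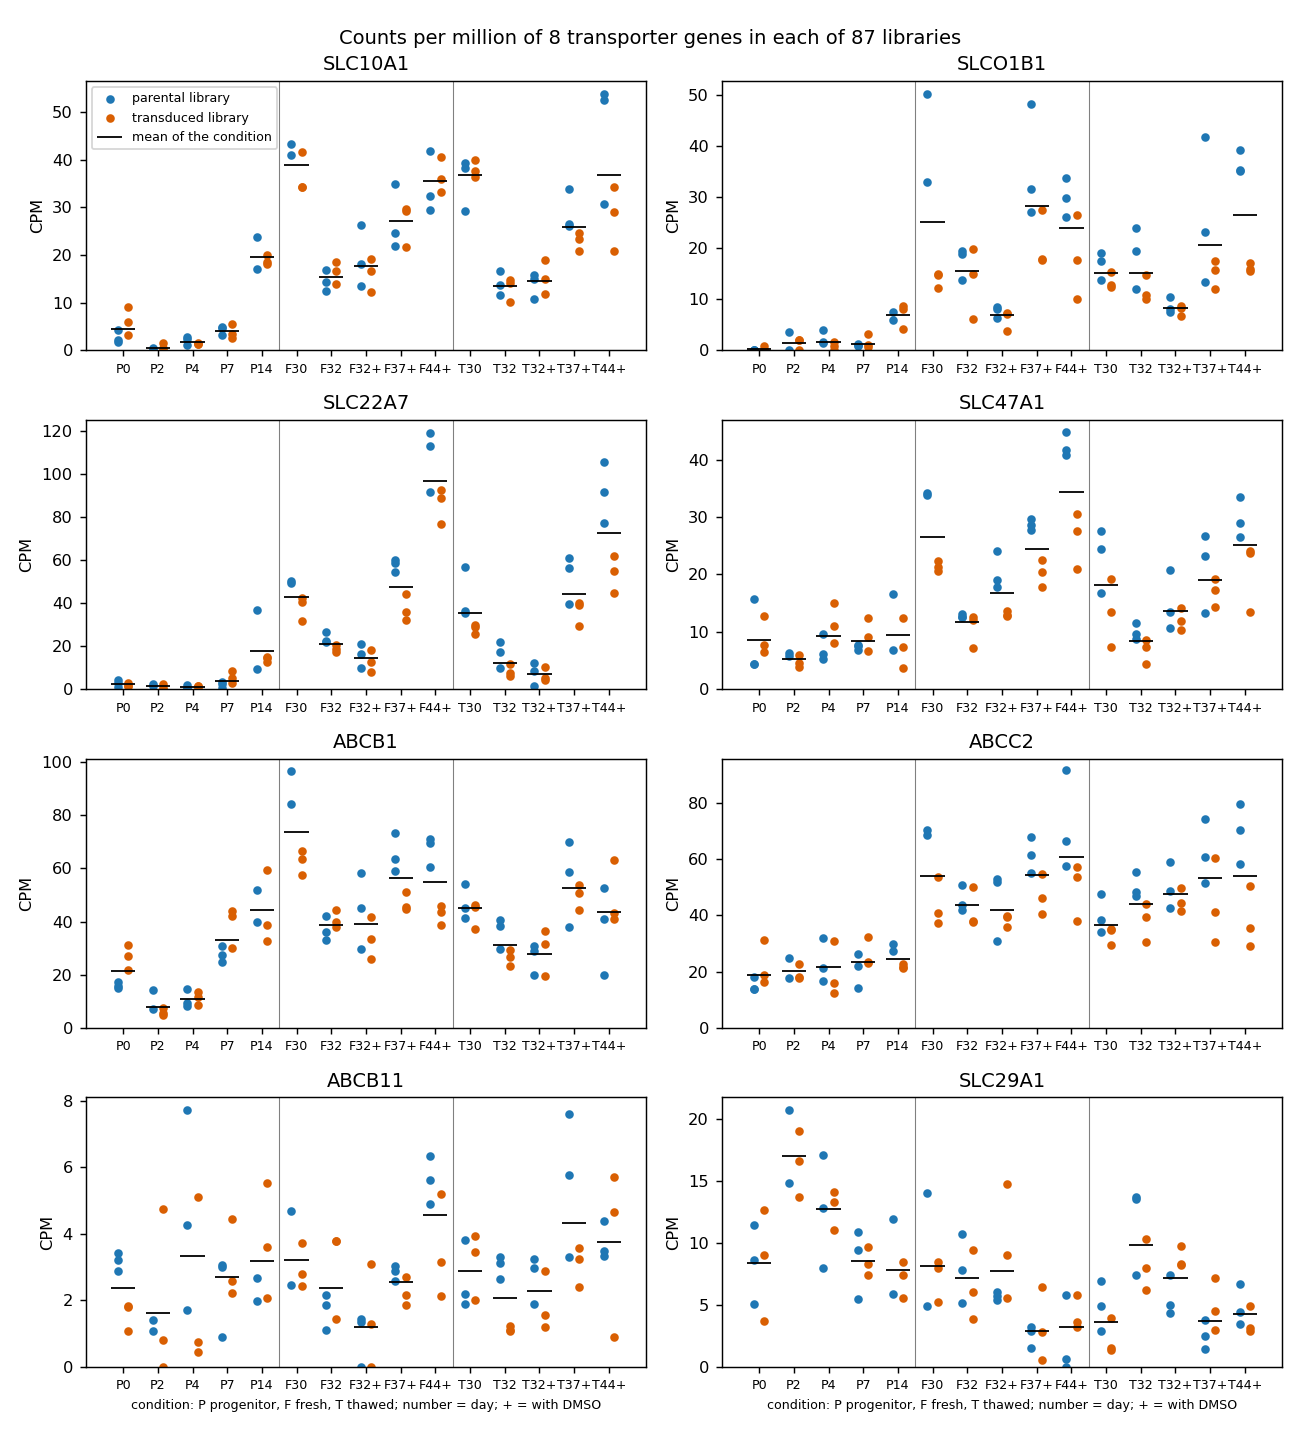
CPM (vertical axis) of 8 transporter genes in each of 87 libraries by condition (P progenitor, F fresh, T thawed; number is the day; + is with DMSO), with parental libraries in blue, transduced libraries in orange and a line at each condition mean. SLC10A1, SLCO1B1 and SLC22A7 are low in progenitors until day 7, SLC10A1 and SLC22A7 fall from day 30 to day 32, and SLC29A1 is highest on progenitor day 2 with a mean of 17.0 CPM.

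By day 32 without DMSO, transporter levels in fresh cells had dropped. The day count in the library names of differentiated cells restarts at day 30. Any replating at that point cannot be told apart from time in culture. Compared with day 30, 12 of 27 genes fell, against 7.81% of all genes, and 0 rose, against 9.53% (edgeR; 0 also at an unadjusted p under 0.05 and 0 by DESeq2). The median log2 change was −0.70. The falls were in 4 ABC pumps (ABCB1, ABCB4, ABCC3 and ABCC6), 3 uptake carriers (SLC10A1, SLCO2B1 and SLC22A7), SLC47A1, SLC38A3, SLC39A14, SLC39A5 and SLC22A18. The fall of SLC39A5 started from a day 30 mean of only 3.90 CPM. Of 11 tested genes of bile acid synthesis and signalling 6 fell and 0 rose, and of 15 regulators 5 fell. Of 7 hepatocyte markers 4 fell, with sums of 58138 ± 9055 CPM on day 30 and 39057 ± 5669 on day 32, and their part in the result was not tested.

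SLC10A1 gave 43.3 and 41.0 CPM in the parental and 34.3, 34.2 and 41.6 in the transduced libraries on day 30. On day 32 it gave 12.5, 15.5 and 18.4 CPM (lowest, median and highest of 6). The groups lay well apart, and the fall was 2.54-fold (log2 change −1.34 ± 0.20 SE, adjusted p = 4.47e-08). SLC47A1, with its day 30 values given above, was at 7.10, 12.5 and 13.1 CPM on day 32. It was lower in every day 32 library, by 2.34-fold (adjusted p = 2.68e-05). SLC38A3 fell 2.63-fold to 3.78, 5.76 and 12.2 CPM (adjusted p = 1.23e-04), with overlap.

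With DMSO, 1 transporter gene was lower than without it in fresh cells on day 32. This was SLCO1B1, 1 of 27 against 1.97% of all genes, and 0 genes were higher, against 0.479% (edgeR; 1 at an unadjusted p under 0.05 and 0 by DESeq2). SLCO1B1 gave 6.04, 16.9 and 19.9 CPM without DMSO and 3.86, 7.28 and 8.54 with it (lowest, median and highest of 6). The groups overlapped through the lowest untreated library, and the difference was 2.21-fold (log2 −1.14 ± 0.30 SE, adjusted p = 0.0125). Without letter a or b the call was lost (adjusted p = 0.179 and 0.135), which left 0 called genes. Among the markers 2 of 7 hepatocyte markers were lower with DMSO and 1 higher, and 1 of 5 tested biliary and progenitor markers was lower. The part of the markers in the result was not tested.

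In thawed cells 2 of 27 were lower with DMSO, against 5.35%, and 0 higher, against 2.42% (edgeR; 1 at an unadjusted p under 0.05 and 0 by DESeq2). SLCO1B1 gave 10.1, 13.4 and 23.9 CPM without DMSO and 6.68, 8.2 and 10.4 with it. The groups overlapped, and the difference was 1.79-fold (adjusted p = 0.0411). SLC38A4, a carrier of neutral amino acids, was at 3.85 ± 1.21 and 1.10 ± 1.16 CPM (SD, n = 6 each; log2 difference −1.77 ± 0.56 SE, adjusted p = 0.0308). For SLCO1B1 the adjusted p was 0.384, 0.0519 and 0.145 without letter a, b and c, for SLC38A4 it was 0.0766, 0.146 and 0.148, so neither gene was called without any 1 letter. Without letter b SLC47A1 was called in the other direction, higher with DMSO (log2 difference 1.04, adjusted p = 0.0255), against an adjusted p of 0.0567 with all letters. A mean count of at least 10, and a fit of only the compared groups, each gave 2 called genes. In each case 1 was higher with DMSO and 1 was among the 2 genes above. Among the markers 4 of 7 hepatocyte markers were lower with DMSO and 1 higher, and the part of the markers in the result was not tested.

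A difference of the DMSO effect between thawed and fresh cells was not shown for any transporter gene. The edgeR interaction test called 0 of 27 higher, against 0% of all genes, and 0 lower, against 0.12% (0 and 0 at an unadjusted p under 0.05, 0 and 0 by DESeq2). For SLCO1B1 the difference of the effects was 0.30 ± 0.41 SE on the log2 scale. SLC10A1 with DMSO was at 17.7 ± 4.93 CPM in fresh and 14.6 ± 2.93 in thawed cells, against 15.4 ± 2.20 and 13.5 ± 2.36 without it (SD, n = 6 each).

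With DMSO from day 32 to day 44, transporter expression in fresh cells rose again. No day 44 cells without DMSO were sampled, so time in culture and DMSO cannot be told apart here. Of the 27 genes 13 rose and 1 fell, against 6.52% and 4.96% of all genes, and the median log2 change was 0.71. The rises were in 5 of 9 uptake carriers (SLC10A1, SLCO1B1, SLCO2B1, SLC22A7 and SLC28A1), 4 of 9 ABC pumps (ABCB11, ABCC2, ABCC3 and ABCC6), SLC47A1, SLC38A3, SLC39A14 and SLC22A18. Of 15 regulators 4 rose and 1 fell; NR0B2 (SHP, a repressor induced by FXR) went from 1.84 to 17.8 CPM (log2 change 3.15 ± 0.42 SE) and NR1I3 (CAR) from 4.09 to 29.2 (2.85 ± 0.31 SE). Of 7 hepatocyte markers 7 rose and of 4 cell cycle markers 4 fell, and their part in the result was not tested. The 14 called genes became 9 without letter b and 9 without c.

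SLC22A7 gave 8, 14.5 and 20.8 CPM on day 32 and 76.5, 92.0 and 119 on day 44 (lowest, median and highest of 6). The groups were far apart, and the rise was 6.94-fold (log2 change 2.79 ± 0.26 SE, adjusted p = 1.32e-14). SLC28A1 (CNT1, a concentrative pyrimidine nucleoside importer) gave 0, 0.664 and 4.02 CPM on day 32 and 4.75, 10.1 and 16.0 on day 44. It was higher in every day 44 library, by 9.86-fold (adjusted p = 1.82e-07). SLC38A3 gave 2.46, 5.87 and 8.13 CPM on day 32 and 13.2, 22.9 and 31.7 on day 44, again without overlap (3.92-fold, adjusted p = 1.91e-07). ABCB11 (BSEP, the bile salt export pump) was low: it went from 1.19 ± 1.14 CPM, 10 counts in 6 libraries, to 4.56 ± 1.60, 47 counts (log2 change 1.77 ± 0.55 SE, adjusted p = 0.0202). Without letter b or c the adjusted p of ABCB11 was 0.127 and 0.159.

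SLC29A1 was the gene that fell. It gave 5.42, 5.87 and 14.8 CPM on day 32 and 0, 3.40 and 5.81 on day 44, with overlap (log2 change −1.30 ± 0.40 SE, adjusted p = 0.0170). Without letter a the log2 change was −0.77 (adjusted p = 0.428), without b the adjusted p was 0.0846, and with only the compared groups fitted it was 0.0629.

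Set against fresh day 30, fresh day 44 cells differed in 4 transporter genes, and the comparison shares its groups with those above. Day 30 was labelled noDMSO and day 44 was with DMSO, so day and label cannot be told apart. SLC22A7 rose, 1 of 27 against 7.12% of all genes, and ABCB1, ABCC1 and SLC29A1 fell, 3 of 27 against 5.63%. SLC22A7 gave 49.1 and 50.2 CPM in the parental and 40.4, 42.4 and 31.6 in the transduced libraries on day 30, all below its day 44 libraries (2.21-fold, adjusted p = 2.58e-04). ABCC1 (MRP1, an exporter of glutathione conjugates) gave 9.36 and 8.57 CPM in the parental and 9.29, 10.0 and 8.41 in the transduced libraries on day 30 and 2.88, 3.41 and 6.14 CPM on day 44. It was lower in every day 44 library (2.21-fold, adjusted p = 0.0458). ABCB1 went from 73.8 ± 16.2 to 54.9 ± 14 CPM (SD, n = 5 and 6; 1.41-fold, adjusted p = 0.0369) and SLC29A1 from 8.13 ± 3.68 to 3.16 ± 2.47 (2.54-fold, adjusted p = 0.0148), both with overlap.

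These 3 falls were sensitive to single letters. Without a, b and c the adjusted p was 0.147, 0.208 and 0.0993 for ABCB1 and 0.0749, 0.347 and 0.142 for ABCC1. Without the filter on low counts it was 0.0819 and 0.0838, and for ABCC1 it was 0.0581 by DESeq2 and 0.0503 without parental day 14 library a. For SLC29A1 it was 0.617 without letter a (log2 change −0.61) and 0.0576 with only the compared groups fitted. The 4 called genes became 1, 2 and 2 without letter a, b and c, and 2 without the filter.

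**Figure D4:**
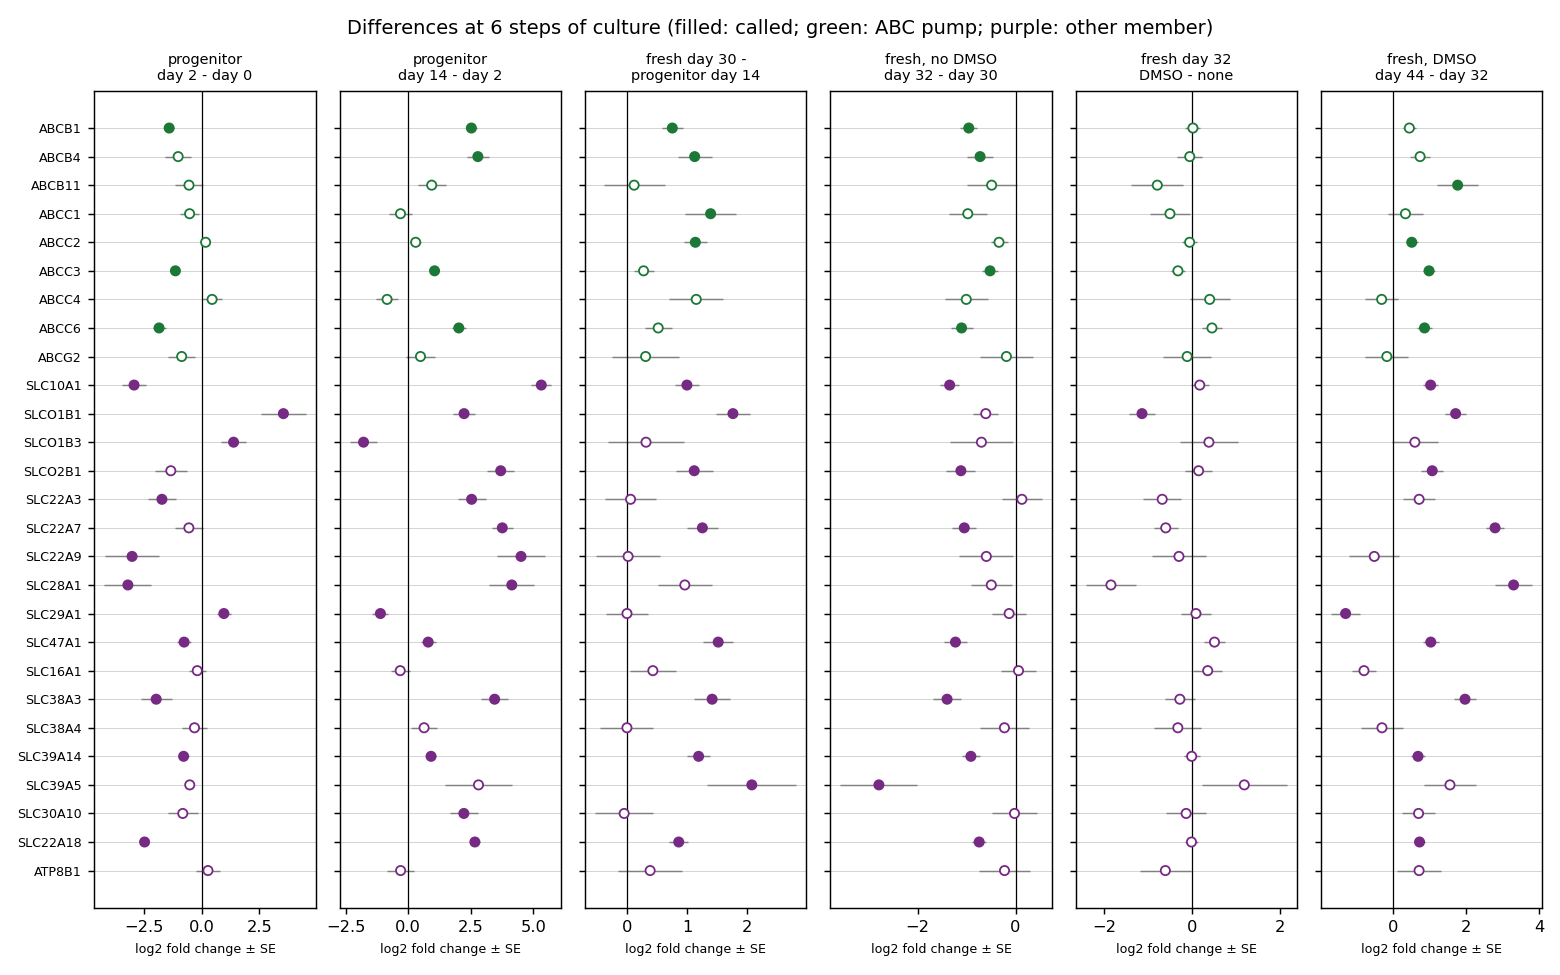
Log2 fold change ± SE (horizontal axis) of the 27 tested transporter genes (vertical axis) at 6 steps of culture; filled points passed the test, green marks ABC pumps and purple the other genes, and each panel has its own scale. Filled points lie to the right for progenitor day 14 against day 2 (16 of 18), fresh day 30 against progenitor day 14 (13 of 13) and fresh day 44 against day 32 (13 of 14), and to the left for fresh day 32 against day 30 (12 of 12); no SE could be given for SLC39A5 in the first panel.

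Thawed cells on day 30 had lower levels of several transporter genes than fresh cells of the same day. Of the 27 genes 7 were lower, against 6.02% of all genes, and 0 higher, against 9.54% (edgeR; 0 also at an unadjusted p under 0.05 and 0 by DESeq2). They were 5 of 9 ABC pumps (ABCB1, ABCC1, ABCC2, ABCC3 and ABCC4), 1 of 9 uptake carriers (SLC29A1) and SLC39A14. The median log2 difference was −0.595 for the 9 ABC pumps and −0.671 for the 9 uptake carriers, against −0.065 for all genes. Called or not, 26 of the 27 genes had a negative log2 difference and 1 a positive one. Whether the shares of called genes differ between the pumps and the carriers was not tested. The hepatocyte markers summed to 57379 ± 8764 CPM (SD, n = 6) in thawed and 58138 ± 9055 (n = 5) in fresh cells. Singly, 2 of these 7 markers were called lower and 0 higher, and their part in the result was not tested. Among 30 other tested hepatic transporters 7 were lower and 0 higher.

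ABCC4 (MRP4, a basolateral exporter of conjugates and nucleotides) gave 8.19 and 9.18 CPM in the parental and 6.46, 4.46 and 6.01 in the transduced libraries in fresh cells and 0, 2.24 and 8.71 CPM (lowest, median and highest of 6) in thawed cells. The groups overlapped, and the difference was 2.79-fold (log2 −1.48 ± 0.47 SE, adjusted p = 0.0197). ABCC1 gave 1.26, 4.24 and 7.36 CPM in thawed cells, below every fresh library (2.17-fold, adjusted p = 0.0471). SLC29A1 gave 14 and 4.90 CPM in the parental and 8.48, 5.20 and 8.01 in the transduced libraries in fresh cells and 1.34, 3.43 and 6.91 CPM in thawed cells, with overlap (2.29-fold, adjusted p = 0.0265). ABCB1 gave 84.2 and 96.7 CPM in the parental and 66.7, 57.6 and 63.7 in the transduced libraries in fresh cells and 37, 45.3 and 54.3 CPM in thawed cells, the latter below all fresh libraries (log2 −0.75 ± 0.17 SE, adjusted p = 5.84e-04).

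Single letters carried some of these calls too. The adjusted p of ABCC1 was 0.123, 0.279 and 0.108 without a, b and c, 0.0962 without the filter and 0.0516 without parental day 14 library a. That of ABCC4 was 0.391 without b (log2 −0.99) and 0.0775 without c, and that of SLC29A1 was 0.655 without a (log2 −0.51) and 0.0618 without c. The 7 called genes became 4 without letter a, 3 without b and 12 with only the compared groups fitted. DESeq2 and the filter on a mean count of at least 10 each called 7 genes as well. In each case 5 of them were among the 7 above.

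In thawed cells transporter levels also fell between day 30 and day 32 without DMSO. Of the 27 genes 10 fell and 1 rose, against 5.86% and 5.98% of all genes. SLC10A1 gave 29.3, 37.9 and 40.0 CPM on day 30 and 10.1, 14 and 16.7 on day 32 (lowest, median and highest of 6). The groups were well apart (2.72-fold, adjusted p = 1.86e-09). SLC22A7 gave 25.7, 32.5 and 57.0 CPM on day 30 and 5.98, 10.8 and 21.7 on day 32, also without overlap (3.01-fold, adjusted p = 2.24e-06). ABCG2 (BCRP, an exporter of drugs and urate) gave 2.47, 4.39 and 10.0 CPM on day 30 and 0, 0.537 and 3.70 on day 32, with overlap (4.21-fold, adjusted p = 0.00291). SLC29A1 was the gene that rose, from 1.34, 3.43 and 6.91 to 6.17, 9.14 and 13.7 CPM, with overlap (log2 change 1.49 ± 0.36 SE, adjusted p = 0.00135). Without letter b or c the adjusted p of ABCG2 was 0.0918 and 0.0613, and the 11 called genes became 6, 6 and 3 without a, b and c. Among the markers 4 of 7 hepatocyte markers fell and 2 of 4 cell cycle markers rose, and of 5 tested biliary and progenitor markers 2 rose and 1 fell. Their part in this change was not tested. Any plating after thawing cannot be told apart from time in culture at this step.

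From day 32 to day 44 with DMSO, 14 of 27 rose in thawed cells, against 5.67% of all genes, and 0 fell, against 3.91% (edgeR; 1 at an unadjusted p under 0.05 and 0 by DESeq2). The median log2 change was 0.86. SLC22A7 gave 1.62, 6.81 and 11.9 CPM on day 32 and 44.5, 69.5 and 106 on day 44 (lowest, median and highest of 6). The groups were far apart, and the rise was 10.3-fold (log2 change 3.36 ± 0.27 SE, adjusted p = 3.18e-17). SLC28A1 gave 0, 0.257 and 1.25 CPM on day 32, from 5 counts, and 7.13, 8.72 and 9.96 on day 44. It was higher in every day 44 library (log2 change 4.06 ± 0.54 SE, adjusted p = 1.04e-09). SLCO2B1 gave 1.18, 6.14 and 8.13 CPM on day 32 and 12.5, 19.6 and 28.6 on day 44, without overlap (3.49-fold, adjusted p = 7.19e-07). Of 7 hepatocyte markers 7 rose and of 4 cell cycle markers 4 fell, and their part in the result was not tested. As in fresh cells, no day 44 cells without DMSO were sampled, so time and DMSO cannot be told apart.

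On day 44 no transporter gene was shown to differ between thawed and fresh cells. The edgeR test called 0 of 27 higher, against 0.0718% of all genes, and 0 lower, against 0.112% (0 and 2 at an unadjusted p under 0.05, 0 and 0 by DESeq2). SLC10A1 gave 20.8, 32.5 and 53.8 CPM in thawed and 29.5, 34.6 and 41.8 in fresh cells (log2 difference 0.01 ± 0.18 SE). SLC22A7, with its values given above, differed by −0.46 ± 0.21 SE on the log2 scale (adjusted p = 0.628). With only the compared groups fitted, 1 gene was called. The change of the thawed-against-fresh difference from day 30 to day 44 was called by edgeR for 0 of 27 in the higher direction, against 1.77% of all genes, and 0 in the lower, against 4.17% (5 and 0 at an unadjusted p under 0.05, 1 and 0 by DESeq2). For SLC39A14 (ZIP14, an importer of zinc, iron and manganese) this change was 0.72 ± 0.25 SE (adjusted p = 0.0616) and for SLC29A1 1.64 ± 0.57 SE (adjusted p = 0.0687). Without letter c, 1 gene was called for this change, as was 1 with only the compared groups fitted.

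Transduced and parental progenitors were not shown to differ in any transporter gene. Over the 5 progenitor conditions edgeR called 0 of 27 higher in transduced libraries, against 1.26% of all genes, and 0 lower, against 0.311% (0 and 2 at an unadjusted p under 0.05, 0 and 0 by DESeq2). Over the 5 fresh conditions 5 of 27 were lower in transduced libraries, against 1.9%, and 0 higher, against 1.88% (edgeR; 0 also at an unadjusted p under 0.05 and 0 by DESeq2). These were ABCB1, ABCC2, SLCO1B1, SLC47A1 and SLC38A3. Over the 5 thawed conditions 4 of 27 were lower, against 1.55%, and 0 higher, against 1.09% (edgeR; 0 also at an unadjusted p under 0.05 and 0 by DESeq2). These were ABCC2, SLCO1B1, SLC22A7 and SLC47A1. Of all 331 genes called in thawed cells 41.4% were higher, and 31.3% with RLE scaling factors and 31% by DESeq2.

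SLC47A1 (chr17:19533854-19579034) on fresh day 44 gave 41.7, 44.9 and 40.9 CPM in the parental and 20.9, 30.6 and 27.6 in the transduced libraries. All its transduced libraries lay below all its parental ones in 5 of 5 fresh conditions (nearly touching on day 32 without DMSO) and in 2 of 5 thawed conditions. The difference was 1.47-fold in fresh cells (log2 −0.55 ± 0.14 SE, adjusted p = 0.0100) and 1.41-fold in thawed cells (log2 −0.50 ± 0.15 SE, adjusted p = 0.0422). SLCO1B1 on thawed day 44 gave 35.2, 39.4 and 35.4 CPM in the parental and 17.1, 16.0 and 15.6 in the transduced libraries, without overlap. Its transduced mean was lower in 5 of 5 fresh and 5 of 5 thawed conditions, but all transduced libraries lay below all parental ones in only 1 and 1 of them. It was 1.64-fold lower in fresh cells (adjusted p = 0.00359) and 1.53-fold lower in thawed cells (adjusted p = 0.0191).

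ABCC2 (chr10:99782640-99852594) on thawed day 44 gave 79.7, 58.3 and 70.2 CPM in the parental and 50.4, 28.9 and 35.3 in the transduced libraries. Its difference was −0.39 ± 0.11 SE on the log2 scale in fresh cells (adjusted p = 0.0188) and −0.43 ± 0.11 SE in thawed cells (adjusted p = 0.00642), with a lower transduced mean in 5 of 5 conditions of each. SLC38A3 on fresh day 44 gave 31.3, 28.7 and 31.7 CPM in the parental and 17.1, 13.2 and 14.1 in the transduced libraries, and was 1.56-fold lower over the fresh conditions (adjusted p = 0.0275). SLC22A7 on thawed day 44 gave 91.6, 77.3 and 106 CPM in the parental and 54.7, 44.5 and 61.8 in the transduced libraries, and was 1.52-fold lower over the thawed conditions (adjusted p = 0.0242). For all 3 genes the transduced libraries at these points lay below the parental ones, but not in every condition. All transduced libraries lay below all parental ones in 3 of 5 fresh and 2 of 5 thawed conditions for ABCC2, in 3 of 5 fresh conditions for SLC38A3 and in 2 of 5 thawed conditions for SLC22A7.

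Several of these calls were lost without 1 letter. In fresh cells the adjusted p was 0.140, 0.0577 and 0.385 for SLC38A3 without a, b and c, 0.142 and 0.161 for SLC47A1 without a and b, and 0.210 for SLCO1B1 without a. For ABCC2 it was 0.625 and 0.0801 in fresh cells without b and c, with a log2 difference of −0.19 without b, and 0.103 in thawed cells without c. In thawed cells it was 0.0583, 0.258 and 0.324 for SLC47A1 without a, b and c (0.0532 without the filter, 0.0521 with the nearly empty libraries kept), 0.172 and 0.274 for SLCO1B1 without a and b, and 0.417 and 0.119 for SLC22A7 without b and c. The 5 genes called in fresh cells became 2, 1 and 2 without a, b and c, and the 4 in thawed cells 2, 1 and 1. Of 7 hepatocyte markers 5 were lower in transduced fresh cells and 5 in thawed cells, with sums on thawed day 44 of 95019 ± 4719.8 CPM in parental and 61098 ± 6610.3 in transduced libraries (SD, n = 3 each), and their part in the result was not tested. A difference of the genotype effect between fresh cells and progenitors was not shown, with 0 of 27 called higher by edgeR, against 0.136% of all genes, and 0 lower, against 1.33% (0 and 6 at an unadjusted p under 0.05, 0 and 0 by DESeq2). Without parental day 14 library a, 1 gene was called there.

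**Figure D5:**
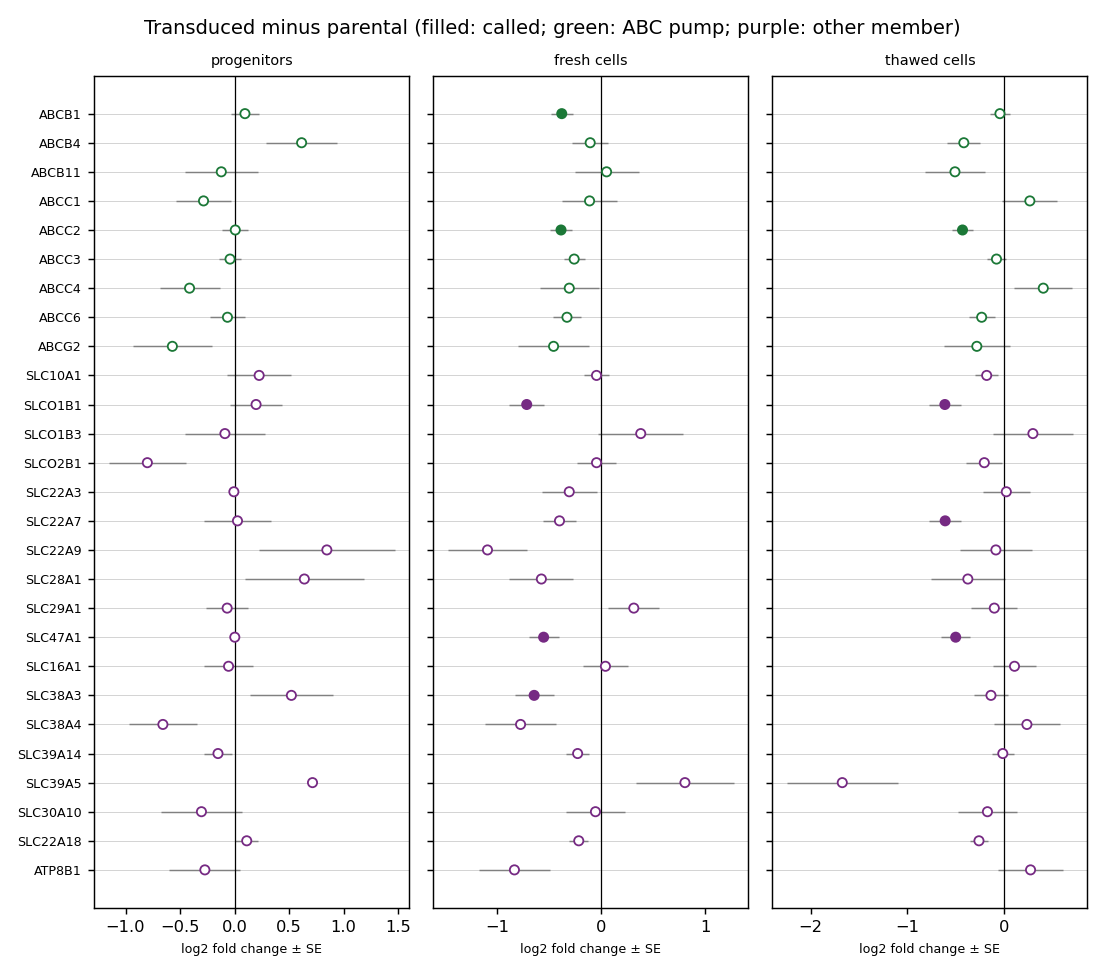
Log2 difference ± SE between transduced and parental libraries (horizontal axis) for the 27 tested transporter genes (vertical axis) in progenitors, fresh cells and thawed cells; filled points passed the test, green marks ABC pumps and purple the other genes, and each panel has its own scale. No point is filled in progenitors, 5 are in fresh cells and 4 in thawed cells, all to the left of 0; no SE could be given for SLC39A5, SLC22A3 and SLC47A1 in progenitors.

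Some liver transporters were near the limit of detection. SLC51A and SLC51B, the subunits of the basolateral bile acid exporter OST, had condition means of at most 0.998 and 2.28 CPM, from 54 and 118 counts over 87 libraries. SLC13A5 (NaCT, a citrate importer) had 26 counts in all and SLCO4C1 (an organic anion carrier) 163. No difference between conditions was tested for these 4 genes. Among the tested genes, ABCB11 had condition means of 1.19 to 4.56 CPM, and SLC22A9 (OAT7, an organic anion carrier) of 0.189 to 3.85. SLC39A5, a metal carrier, had means of 0 to 3.90 CPM, from 203 counts in 54 of the 87 libraries. ATP8B1 (a phospholipid flippase of the bile-facing membrane) had means of 2.17 to 3.95 CPM and SLC16A1 (MCT1, a lactate and pyruvate carrier) of 36.3 to 92.6, and neither passed the test in any comparison. SLC30A10 (a manganese exporter) rose in 1 comparison, from progenitor day 2 to day 14 (log2 change 2.22 ± 0.57 SE, adjusted p = 0.00129).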

How the data were processed

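RNA from HepaRG cells was profiled by BRB-seq, a multiplexed 3′ RNA-seq method, from 10 ng of total RNA per library. The values are counts per gene symbol, deposited by the authors as one table for 90 libraries. Per the submitters' processing notes, BWA 0.7.4.4 was used and the builds mm10 and hg38 are named, without roles. The counting rule and the handling of molecular identifiers are not given in the sources used here, so depth speaks of counting error only. All are whole numbers.

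From these counts, 3 libraries under 0.25 times the median total were left out (parental progenitor day 2 c and day 14 c, parental fresh day 30 c). Genes passing edgeR's filterByExpr (12532, of 28307 listed and 3172 without a count) were fitted with edgeR 4.0.16 in R 4.3.3: TMM scaling, robust quasi-likelihood, 1 mean for each of 30 groups, 57 residual degrees of freedom. Contrasts averaged parental and transduced groups, and p-values were adjusted by Benjamini-Hochberg over all tested genes. CPM use the TMM-scaled totals, and each SE is the log2 change divided by the square root of its F statistic, and none is given where F is close to 0. Replicate pairs differed beyond sampling noise (lowest chi-square per degree of freedom 1.927).

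Full statistics go to the called genes with at least 5 CPM on a side, at most the 3 largest rises and 3 largest falls. Those of ABCB11, ABCC2, SLC38A4, SLC30A10, of ABCB1 between thawed and fresh cells, and of the change in the thawed-against-fresh difference were added after their values were seen. Alternatives were DESeq2 1.42.0, RLE scaling, other filters, keeping the nearly empty libraries, fitting only the compared groups, a block for the letter, and leaving out each letter or parental progenitor day 14 library a. That library had the most counts (3882866). Its chi-square per degree of freedom against library b, the other one left in its group, was 11.63. The median over replicate pairs was 3.637, and some pairs differed more, up to 19.57. The members and lists were chosen with earlier results of these data known. Overlapping genes (ABCB1 with RUNDC3B, ABCB4 with CROT, SLC22A7 with CRIP3, SLC39A5 with ANKRD52) may share reads.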

Additional observations from a re-analysis of the deposited data

How the results depend on the processing

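No call of the named genes changed direction under any alternative tried. The number of transporter genes called between thawed and fresh cells was 12 on day 30 and 1 on day 44 with only the compared groups fitted, against 7 and 0. With that fit the day 2 against day 0 count was 8, against 14. The change of the thawed-against-fresh difference gave 1 gene with DESeq2, with a mean count of at least 10 and with only the compared groups, against 0. Without the filter on low counts, fresh day 44 against day 30 gave 2 genes, against 4. For DMSO in thawed cells, a mean count of at least 10 and only the compared groups each gave 1 gene higher, against 0. The cause of these shifts was not tested.

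Leaving out 1 letter, or parental progenitor day 14 library a, removes libraries and moved more counts. The ranges were 8 to 14 for progenitor day 2 against day 0, 7 to 14 for fresh day 30 against progenitor day 14, 9 to 14 for fresh day 44 against day 32 and 1 to 3 for fresh day 44 against day 30. They were 3 to 6 for thawed against fresh on day 30, 3 to 11 for thawed day 32 against day 30, 0 to 1 for DMSO in fresh cells and 0 to 2 in thawed cells. In thawed cells the 1 gene called without letter b was SLC47A1, higher with DMSO. For the genotype they were 1 to 5 in fresh cells and 1 to 5 in thawed cells, and 0 to 1 both for its difference from progenitors and for the change of the thawed-against-fresh difference.

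The letters were not shown to pair the libraries: residuals of libraries with the same letter had a median correlation of −0.00467, and those of different letters −9.02e-05. With the letter as a replicate block, 17 of 18 counts were as without it, and fresh day 32 against day 30 gave 11 genes, against 12. Of 42 named calls, 16 were lost without letter a, 16 without b and 12 without c. Low depth limits the genes under a few CPM, such as ABCB11, SLCO1B3 and SLC22A9.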

Other observations

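SLC16A1 (MCT1, a lactate and pyruvate carrier) and SLC30A10 (a manganese exporter) varied widely among libraries of the same group, and both were singled out after their values were seen. In units of counting noise, the spread of SLC16A1 within the 30 groups was a chi-square per degree of freedom of 16.9, against a median of 2.90 over 1239 genes of similar level, and 95.3% of those genes were lower. For SLC30A10 it was 7.33, against a median of 2.04 over 2643 genes, and 99.0% were lower. SLC10A1, by contrast, had a value of 1.41, with 4.04% of genes of similar level lower. Over 87 libraries the deviations of SLC16A1 and SLC30A10 from their group means had a correlation of r = 0.623, the highest of 351 pairs of transporter genes and the one pair over 0.5, where the median was 0.015. The libraries share depth and handling between genes, so the value is a description without a test. In progenitors on day 7 SLC16A1 ranged from 27.1 to 139 CPM, and in fresh cells on day 37 SLC30A10 ranged from 5.92 to 54.3.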
